A study of Mus musculus with 72 samples.

Results

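The livers of DBA/2J females fed a Western diet with high isoleucine were compared with those of DBA/2J females fed a Western diet with low isoleucine. DBA/2J is an inbred mouse strain with no engineered allele named in the labels. The comparison rests on 6 libraries of each diet, 12 of the 72 libraries in the series, chosen by the strain, sex and diet labels. All the mice of the series, which also holds C57BL/6J mice, males and a Western diet with control isoleucine, ate their diet for 12 weeks and were fasted for 16 hours before the liver was taken. The sources conflict on the age at which the diets began: the design text gives 6 weeks, whereas the treatment text of the sample labels gives 18 weeks, which is also the value of the age label. How much isoleucine each diet held is not given in the labels. The DBA/2J females on control isoleucine (6 libraries) are used here to place the other groups, and the C57BL/6J females and DBA/2J males on high and low isoleucine (12 libraries each) to test whether the difference depended on strain or sex. Whole liver RNA was sequenced, so all cell types of the organ contribute.

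Isoleucine is one of the branched-chain amino acids, which mammals must take from food. Scarcity of an amino acid leaves its transfer RNA uncharged, which activates the kinase GCN2 and, through it, the transcription factor ATF4, and it lowers the activity of the growth kinase complex mTORC1. In a fasted liver, fatty acids released from fat activate the nuclear receptor PPARA, glucocorticoids and FOXO1 drive glucose production, and the circadian clock follows the time of the last meal. The liver also holds resident macrophages, called Kupffer cells, and hepatocytes that respond to interferons, secreted proteins that switch on antiviral genes. These are background facts, and the levels below are given without reading any of these pathways as a cause.

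Gene levels are given as CPM, the gene's expected count per 1e+06 counts of the library after scaling by trimmed means (TMM), and they compare 1 gene between libraries, not different genes. Each group of 6 is given by its lowest, median and highest library. A gene is said to have risen or fallen where edgeR's quasi-likelihood test gave an adjusted p below 0.05 over the 14954 genes with enough counts, and log2 differences are high minus low isoleucine with their standard error (SE). The labels do not say whether the 6 libraries of a diet came from 6 animals, so the p-values measure the spread between libraries, which may in part be technical. The titles carry 3 numbers per diet, each shared by 2 libraries that differ in a letter, N or R, and the meaning of both is not given. The main test took the 6 libraries of a diet as separate units and ignored these numbers. Its p-values would be too small if libraries of 1 number are not independent.

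Depth, in units of 1e+06 counts, was 19.5 to 48.5 in the low-isoleucine libraries and 20.2 to 27.9 in the high-isoleucine libraries. Xist was present and Ddx3y was at 0 in all 18 DBA/2J female libraries, as their sex label requires. Both high-isoleucine libraries titled with the number 28 stood apart from the other 4. The acute phase protein genes Saa1 and Saa2 stood at 505.5 and 289.9 CPM in 28N and at 1373 and 788.9 CPM in 28R, against 12.4 to 36.7 CPM and 5.48 to 21.8 CPM in the others. In 28R alone the interferon-induced GTPase gene Tgtp1 stood at 355.9 CPM and the histone methyltransferase gene Suv39h2 at 26.4 CPM, against at most 25.55 and 0.723 CPM in the other high-isoleucine libraries. The mitochondrially encoded share of counts was 5.75% and 5.89% in these 2 libraries, 8.6% to 9.27% in the other high-isoleucine libraries and 8.31% to 11.2% in the low-isoleucine libraries. Many results are therefore also given without them, but a number of log2 differences are given with all libraries only.

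**Figure D1:**
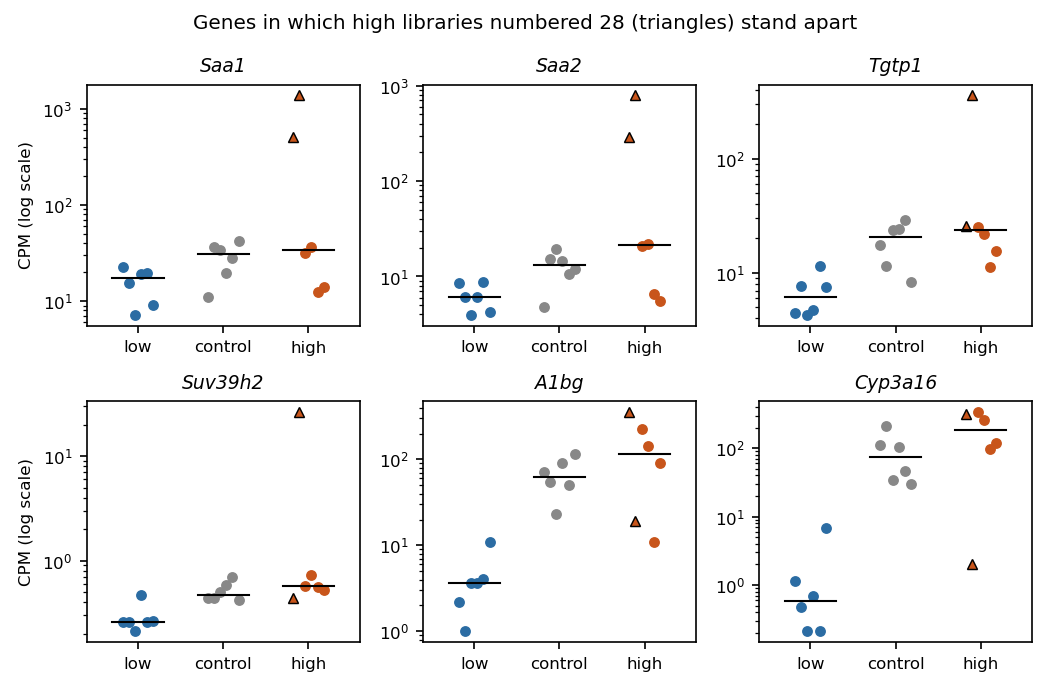
Each panel plots 1 gene in the 18 DBA/2J female libraries, with diet on the horizontal axis and CPM on a logarithmic vertical axis; points are libraries, triangles are the high-isoleucine libraries titled with the number 28, and bars are medians. Saa1 and Saa2 are far higher in both triangles, Tgtp1 and Suv39h2 in 1 of them, while Cyp3a16 is lowest in 1 of them among the high-isoleucine libraries and A1bg is lowest in another library.

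High and low isoleucine differed in many genes, and few genes separated high from control isoleucine. Between high and low isoleucine 2223 genes changed: 1309 rose, 8.75% of the genes tested, and 914 fell, 6.11%. Of these, 282 rose and 122 fell at least 2-fold. All 6 high libraries lay above all 6 low libraries for 544 genes (3.64%) and below them for 376 (2.51%). The counts given below for gene lists are to be read beside these shares of all genes tested. The lists were chosen with earlier results of these data known, so their counts are descriptions and not tests. Low against control isoleucine gave 764 higher genes (5.11%) and 996 lower genes (6.66%), whereas high against control gave 1 higher gene (0.00669%) and 0% lower. That gene was Suv39h2, and it was not called without high replicate 2, the library 28R. At an unadjusted p below 0.05 the high against control comparison held 358 genes, and DESeq2 called 3. The 3 comparisons share libraries and are given side by side only. Without the number-28 libraries the high against low comparison held 1272 genes, 798 higher and 474 lower, of which 1134 were also called with all libraries. With the title number as a random block it held 1177 genes, 714 higher and 463 lower. Scaling by library totals alone put the median log2 difference of all genes at 0.11 and gave 2298 higher and 409 lower genes. Under the same scaling low against control isoleucine gave 343 higher and 1684 lower genes.

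Nearly all interferon response genes were higher on high isoleucine. Of 30 tested genes of the interferon response list, 29 rose and none fell, with a median log2 difference of 1.44 against -0.00452 over all genes tested. The remaining member, Stat2, had a log2 difference of 0.33 (adjusted p = 0.11). For 25 of the 30 genes every high library lay above every low library, against 3.64% of all genes tested. This list too was chosen with earlier results known, so the counts describe it only. Without the number-28 libraries 26 of the 30 rose, with a median of 1.23.

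Oas1a makes the short oligoadenylates that activate the RNA-degrading enzyme RNase L. It stood at 1.12, 1.81 and 3.13 CPM (lowest, median and highest) on low isoleucine and at 6.97, 8.86 and 24.9 CPM on high isoleucine. The groups did not overlap, and the log2 difference was 2.68 (SE 0.27, adjusted p = 2e-10), the lowest adjusted p of the comparison. Its neighbour Oas1g, of the same family, rose by 2.26 on the log2 scale (SE 0.25, adjusted p = 2.2e-09); the 2 genes are close copies, and how reads were shared between them is not known. Ifi27, which encodes a small interferon-induced membrane protein, had more counts and stood at 37.3, 52.4 and 75.4 CPM on low and at 112.2, 146.6 and 299.3 CPM on high isoleucine. Again every high library lay above every low library, and the difference was 1.67 (SE 0.17, adjusted p = 2.7e-10).

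Zbp1, a sensor of left-handed nucleic acids that can start cell death, stood at 3.03, 4.56 and 5.39 CPM on low and at 10.2, 20.2 and 103.3 CPM on high isoleucine. Library 28R held the highest value, and the difference of 2.89 (SE 0.37, adjusted p = 7.5e-08) was 1.95 without the number-28 libraries (adjusted p = 2.7e-05). Ifih1, the RNA sensor MDA5, was as clear with little spread: 8.54, 9.07 and 11.2 CPM on low and 15.7, 22.0 and 26.1 CPM on high isoleucine, a difference of 1.20 (SE 0.14, adjusted p = 6.3e-09). Usp18, which removes the ubiquitin-like modifier ISG15 and damps the interferon receptor, rose by 1.74 (SE 0.21, adjusted p = 2.8e-08). Rtp4 and Herc6, a receptor-transporting chaperone gene and an ISG15 ligase gene, rose by 1.66 and 1.65, and Ifi44, an interferon-induced cytoplasmic protein gene, by 2.36. Apol9a, an interferon-induced apolipoprotein L gene, stood at 60.3, 75.8 and 114.5 CPM on low and at 152.3, 207.4 and 379.3 CPM on high isoleucine, and rose by 1.54 (SE 0.20, adjusted p = 7.3e-08).

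On control isoleucine these genes stood near their high-isoleucine level: the median was 7.32 CPM for Oas1a, 149.2 CPM for Ifi27, 19.4 CPM for Zbp1 and 199.7 CPM for Apol9a. The median log2 difference of the 30 genes was -1.24 for low minus control and 0.18 for high minus control. All 4 passed the test in low against control isoleucine and none passed in high against control.

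**Figure D2:**
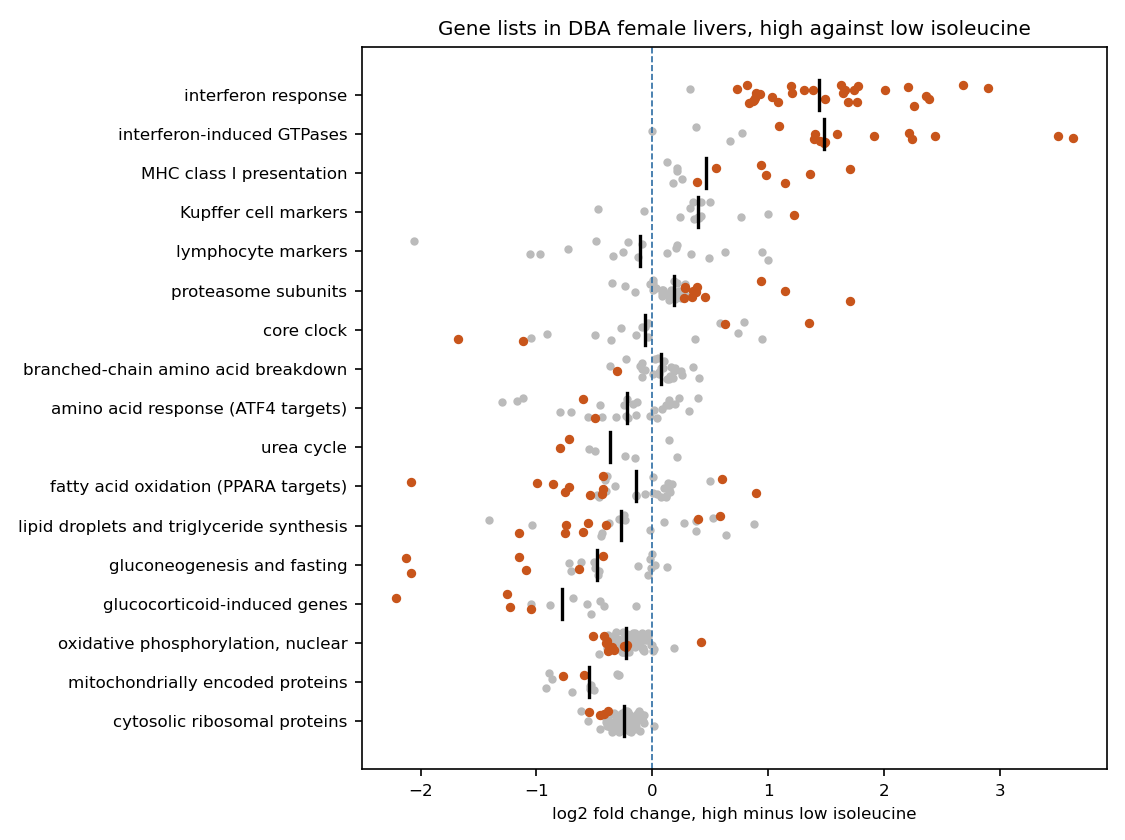
Each row is a gene list and each point a tested member, with its log2 difference high minus low isoleucine in DBA/2J females on the horizontal axis; orange points passed the test, grey points did not, black bars are list medians and the dashed line is the median of all genes tested. The interferon lists lie to the right with nearly all members orange, and the gluconeogenesis and glucocorticoid lists lie to the left with a minority orange.

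Most of the promoters that could be looked up for these genes share a short sequence. A RefSeq table (GRCm38.p6) of 250 bases before to 50 bases after each start held 29 of the 47 genes of the interferon response and interferon-induced GTPase lists. The core of the interferon-stimulated element, GAAANNGAA, was searched on both strands and found in 22 of the 29 (75.9%), against 7.47% of the 11024 promoters of tested genes and 8.55% of all 27025 promoters of the same length. Shown are the 100 bases before the start of 5 genes that rose, 5′ to 3′ in the direction of the gene, with the matches in capitals; each stretch of capitals holds 2 overlapping matches, which lie on the opposite strand in Gbp3 and Apol9a.
Oas1a, chr5:120907526-120907625, minus strand: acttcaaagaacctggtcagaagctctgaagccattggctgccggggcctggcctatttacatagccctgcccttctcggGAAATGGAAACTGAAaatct
Oas1g, chr5:120887614-120887713, minus strand: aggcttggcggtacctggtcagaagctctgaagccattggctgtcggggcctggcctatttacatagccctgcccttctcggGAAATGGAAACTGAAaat
Gbp3, chr3:142559944-142560043, plus strand: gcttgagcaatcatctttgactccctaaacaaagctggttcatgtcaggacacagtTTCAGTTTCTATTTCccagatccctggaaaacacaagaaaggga
Irgm1, chr11:48871421-48871520, minus strand: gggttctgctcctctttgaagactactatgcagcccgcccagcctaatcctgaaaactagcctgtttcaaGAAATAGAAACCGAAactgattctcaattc
Apol9a, chr15:77411081-77411180, minus strand: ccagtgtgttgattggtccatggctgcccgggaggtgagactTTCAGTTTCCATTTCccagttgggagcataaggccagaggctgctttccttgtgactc
A match in these letters is a description and was not tested for binding.

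Genes for interferon-induced GTPases, which attack the membranes around intracellular microbes, rose too. Of 17 tested, 13 rose and none fell (median 1.48), and 9 rose without the number-28 libraries (median 1.03). Gbp10, a guanylate-binding protein gene, stood at 2.10, 2.99 and 4.38 CPM on low and at 9.49, 31.4 and 93.7 CPM on high isoleucine. The groups were apart in every library, and the difference was 3.63 (SE 0.55, adjusted p = 3.2e-06). Gbp3 and Gbp7 rose by 2.44 and 1.92, and Irgm1, a regulator of the family, by 1.45 (23.99 to 39.2 CPM against 49.4 to 158.2 CPM). Their lowest differences across all the alternative fits were 1.77, 1.46 and 1.03, in the same order, and each stayed called. Tgtp1 rose by 3.503, but without the number-28 libraries the difference was 1.47 (adjusted p = 0.062). Some members of this family are close copies, and how reads were divided among them is not known.

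Antigen presentation genes moved the same way over fewer members. Of 12 tested genes of MHC class I presentation, 7 rose and none fell (median 0.47), and 3 rose without the number-28 libraries. Tap1 and Tap2 encode the pump that carries peptides to class I molecules. Tap1 stood at 12.5, 16.6 and 20.8 CPM on low and at 26.3, 35.2 and 89.1 CPM on high isoleucine, a difference of 1.36 (SE 0.20, adjusted p = 1.3e-06). Tap2 rose by 0.98 (adjusted p = 5.4e-05). Psmb9, an immunoproteasome subunit that replaces a standard one under interferon, rose by 1.71 (SE 0.26, adjusted p = 2.7e-06). Its lowest difference across the alternative fits was 1.06. Its partners Psmb8 and Psmb10 rose by 1.15 and 0.94, with adjusted p = 0.062 and adjusted p = 0.053 without the number-28 libraries. Of 38 proteasome subunits 11 rose, these 3 included, and none fell, against 8.75% and 6.11% of all genes tested. Without the number-28 libraries 2 rose.

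Of 7 tested MHC class II genes 2 rose: Ciita, the master activator of the class, by 1.19 (adjusted p = 0.012) and the class II chain gene H2-Eb1 by 1.01 (adjusted p = 0.039). Neither passed without 28R (adjusted p = 0.23 and adjusted p = 0.36), and H2-Eb1 also lost its call without any of low replicates 1 to 4.

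Macrophage genes were largely not called. Of 14 Kupffer cell markers 1 rose: Mpeg1, a pore-forming protein of macrophages, stood at 35.5, 43.9 and 49.3 CPM on low and at 54.1, 86.6 and 206.7 CPM on high isoleucine, a difference of 1.22 (SE 0.23, adjusted p = 0.00019). Its lowest difference across the alternative fits was 0.88. The list had a median log2 difference of 0.40, and of 0.45 without the number-28 libraries, against -0.00452 over all genes tested. The summed Kupffer markers spanned 279 to 436 CPM (median 317) on low and 356 to 579 CPM (median 467) on high isoleucine, ranges that overlapped. In whole tissue, fewer cells of a type and less RNA per cell cannot be told apart. None of 18 tested lymphocyte markers was called at an adjusted p below 0.05. The sum of all 20 markers of the list spanned 13.6 to 31.2 CPM on low and 15.6 to 23 CPM on high isoleucine. The part of immune cell numbers in the interferon difference was not tested.

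Of 16 sinusoidal endothelial markers 3 fell and none rose (median -0.40): Bmp2, which signals iron load to hepatocytes (-0.82, adjusted p = 0.00011), the VEGF receptor gene Kdr (-0.67, adjusted p = 0.0095) and the scavenger receptor gene Stab1 (-0.43, adjusted p = 0.025). Kdr and Stab1 were not called without the number-28 libraries (adjusted p = 0.1 and adjusted p = 0.08), and Stab1 lost its call in 5 of the 12 fits that left out 1 library. Bmp6, the endothelial partner of Bmp2 in iron sensing, fell by 0.78 (adjusted p = 0.0017). The summed endothelial markers spanned 389 to 485 CPM on low and 262 to 447 CPM on high isoleucine, and the summed hepatocyte markers 148000 to 183000 CPM and 107000 to 157000 CPM. Of the 12 hepatocyte markers 1 fell, the albumin gene Alb (-0.36, adjusted p = 0.022), with an adjusted p of 0.31 without the number-28 libraries and a call lost in 4 of the 12 fits that left out 1 library.

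**Figure D3:**
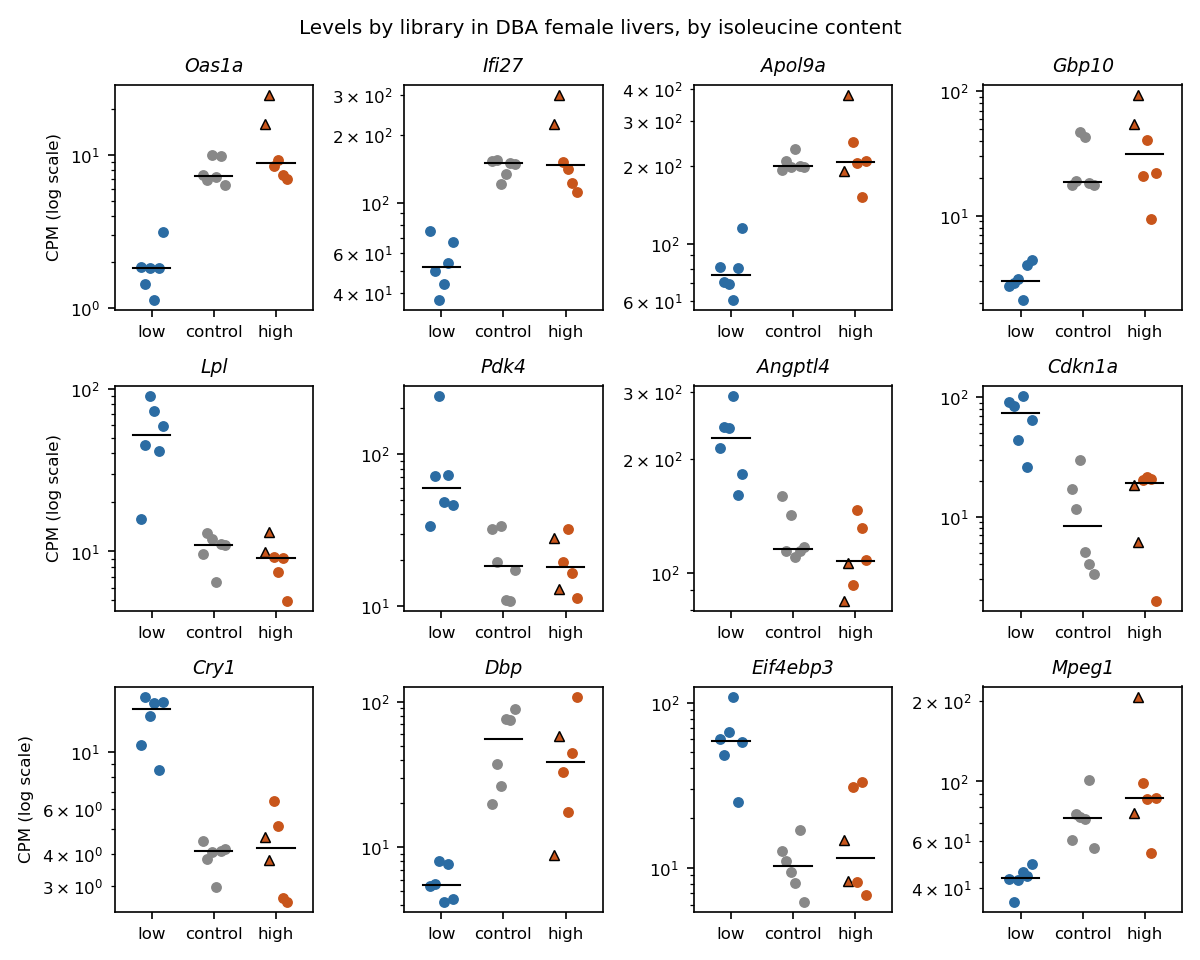
Each panel plots 1 gene in the 18 DBA/2J female libraries by diet (low, control, high), with CPM on a logarithmic vertical axis; points are libraries, triangles the high-isoleucine libraries titled with the number 28, bars medians. Oas1a, Ifi27, Apol9a, Gbp10, Dbp and Mpeg1 are lowest on low isoleucine, and Lpl, Pdk4, Angptl4, Cdkn1a, Cry1 and Eif4ebp3 are highest there, with the control libraries near the high ones.

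Several genes of glucose production and fasting were lower on high than on low isoleucine. Of 20 tested genes of gluconeogenesis and fasting 6 fell and none rose (median -0.48), and 3 fell without the number-28 libraries. Pdk4, the kinase that shuts pyruvate out of the mitochondrial oxidation route, stood at 33.4, 60.03 and 239.8 CPM on low and at 11.3, 18.1 and 32.2 CPM on high isoleucine. The groups were apart, if narrowly, and the difference was -2.08 (SE 0.44, adjusted p = 0.0006). G6pc, which releases free glucose from the liver, stood at 220.5, 312.4 and 512.1 CPM on low and at 89.4, 165 and 214.2 CPM on high isoleucine, a difference of -1.09 (SE 0.27, adjusted p = 0.0038). Foxo1, the factor that drives this programme when insulin is low, fell by 0.63 (adjusted p = 0.0027). Igfbp1, an insulin-repressed binding protein of IGF1, fell by 2.13 (SE 0.63, adjusted p = 0.015), with a difference of -2.15 without the number-28 libraries (adjusted p = 0.057); its call also went without low replicate 6 (adjusted p = 0.085). Pck1, the cytosolic gluconeogenic carboxykinase, stood at 1560, 1733 and 2170 CPM on low and at 829.5, 1266 and 1725 CPM on high isoleucine and was not called (adjusted p = 0.071).

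Of 12 glucocorticoid-induced genes 4 fell and none rose (median -0.78), and without the number-28 libraries 2 fell. Cdkn1a, the cell cycle inhibitor p21, stood at 25.9, 74.5 and 102.7 CPM on low and at 1.97, 19.3 and 21.6 CPM on high isoleucine, a difference of -2.21 (SE 0.58, adjusted p = 0.0064). All the high libraries lay below all the low ones. Sgk1, a kinase of ion transport, fell by 1.26 (SE 0.32, adjusted p = 0.0053), also without overlap. The tyrosine aminotransferase gene Tat fell by 1.05 (adjusted p = 0.0082) and the phosphatase gene Dusp1 (-1.23, adjusted p = 0.025). Neither passed without the number-28 libraries (adjusted p = 0.086 and adjusted p = 0.16), Tat also failed without low replicate 4 (adjusted p = 0.062), and Dusp1 in 6 of the 12 fits that left out 1 library.

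Among 33 tested fatty acid oxidation genes, targets of PPARA, 9 fell and 2 rose (median -0.14), and without the number-28 libraries 4 fell and 2 rose. Scaled by library totals alone the counts were 5 lower and 7 higher, so the list as a whole has no direction that holds under both scalings. Pdk4 is a member, and Angptl4, a secreted inhibitor of lipoprotein lipase, stood at 160.8, 227.5 and 293.7 CPM on low and at 84.3, 107.3 and 146.7 CPM on high isoleucine. The groups did not overlap, and Angptl4 fell by 0.995 (SE 0.17, adjusted p = 2.8e-05). The 2 members that rose were Vnn1, a pantetheine hydrolase, by 0.89 (adjusted p = 0.0017) and Bdh1, which interconverts ketone bodies, by 0.61 (adjusted p = 0.0023). Pxmp4, a peroxisomal membrane protein gene, had the lowest adjusted p among the falls after Cry1: 165.3, 177 and 222.9 CPM on low against 83.3, 101.6 and 137.6 CPM on high isoleucine, a difference of -0.81 (SE 0.11, adjusted p = 1.2e-07).

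Lpl, the lipoprotein lipase that frees fatty acids from circulating triglyceride, is normally little expressed in the adult liver. It stood at 15.8, 52.0 and 90.3 CPM on low, at a median of 11.03 CPM on control and at 4.95, 9.14 and 13.1 CPM on high isoleucine. The groups were apart, and Lpl fell by 2.59 (SE 0.40, adjusted p = 3.9e-06). It was the only one of 15 infiltrating and lipid-associated macrophage markers that was called. The summed level of that list, in which Lpl is itself counted, was 69.6 to 128 CPM on low and 40.5 to 78.5 CPM on high isoleucine, and the part of macrophages in the Lpl level was not tested.

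Of 24 genes of lipid droplets and triglyceride synthesis 6 fell and 2 rose (median -0.27), and without the number-28 libraries 3 fell and 1 rose. Scaled by library totals alone 4 fell and 4 rose, so no direction is stated for the list. Pnpla2, the first lipase of stored triglyceride, stood at 92.5, 109 and 143.6 CPM on low and at 44.7, 68.0 and 85.2 CPM on high isoleucine, and fell by 0.75 (SE 0.16, adjusted p = 0.0008). Agpat2, an acyltransferase of triglyceride synthesis, fell by 0.56 (SE 0.11, adjusted p = 0.00036), and the droplet coat gene Plin5 (-0.74, adjusted p = 0.0029; adjusted p = 0.057 without the number-28 libraries). The coat gene Plin3 rose by 0.59 (adjusted p = 0.0072). Cidec, a droplet fusion gene, was near 1.3 to 1.8 CPM in the medians of both diets and was not called.

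Of 21 fatty acid synthesis genes 2 rose and 2 fell, not far from the 8.75% and 6.11% of all genes tested. Pklr, the liver pyruvate kinase that responds to glucose, rose by 0.86 (adjusted p = 0.0058) with no overlap. Scd2, a desaturase, fell by 0.84 (adjusted p = 0.0048). The elongase genes Elovl2 and Elovl3 went opposite ways (0.64, adjusted p = 0.02, and -1.09, adjusted p = 0.027). Elovl2 was not called without the number-28 libraries (adjusted p = 0.11) and lost its call in 4 of the 12 fits that left out 1 library, and Elovl3 did so in 5. The fatty acid synthase gene Fasn stood at 47.6, 67.7 and 79.4 CPM on low and at 36.2, 58.9 and 132.4 CPM on high isoleucine and did not differ beyond its spread (-0.01, SE 0.24). Neither Scd1 (-0.34, SE 0.49) nor Srebf1, the factor behind this pathway (-0.16, SE 0.29), passed the test. None of 25 cholesterol synthesis genes was called (median 0.20).

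Of 25 bile acid and sterol genes 3 fell and 2 rose, and under library totals alone 2 were lower and 5 higher, so no direction is stated for the list. Cyp27a1, the mitochondrial enzyme of the alternative bile acid route, stood at 378.2, 434.6 and 525.1 CPM on low and at 231.5, 300.1 and 409.6 CPM on high isoleucine, a difference of -0.54 (SE 0.11, adjusted p = 0.00062). Several other calls were less stable. Cyp8b1, which sets the share of cholic acid (-0.54, adjusted p = 0.028), had an adjusted p of 0.077 without the number-28 libraries and lost its call in 5 of the 12 fits that left out 1 library. Cyp39a1, an oxysterol hydroxylase (-1.06, adjusted p = 0.02), reached an adjusted p of 0.17 without the pair and lost its call in 4 of the 12. Cyp7b1, an oxysterol hydroxylase of the alternative route (1.43, adjusted p = 0.0069), reached an adjusted p of 0.21 without the pair and of 0.068 without high replicate 1 alone. The other rise was Hsd3b7 (0.31), named only to complete the count after its value was seen. Cyp7a1, the rate-limiting enzyme of bile acid synthesis, stood at 136, 189 and 299 CPM on low and at 140.2, 199.5 and 331 CPM on high isoleucine and was not called (0.07, SE 0.41).

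Single clock genes changed, in both directions. Of 19 core clock genes 2 rose and 2 fell (median -0.06). These counts are not far from the 8.75% and 6.11% of all genes tested that rose and fell. Cry1, a repressor of the clock, stood at 8.51, 14.7 and 16.5 CPM on low, at a median of 4.10 CPM on control and at 2.60, 4.22 and 6.48 CPM on high isoleucine. Every high library lay below every low library, and the difference of -1.67 (SE 0.21, adjusted p = 3.3e-08) had the lowest adjusted p of all falls. Arntl, which encodes the activator BMAL1, fell by 1.12 (adjusted p = 0.019) and was not called without the number-28 libraries (adjusted p = 0.07), nor without high replicate 2 or 6 alone (adjusted p up to 0.062). Nr1d1 and Nr1d2, the REV-ERB repressors of Arntl, rose by 1.35 (adjusted p = 0.0026) and 0.62 (adjusted p = 0.0032).

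Among 10 clock output genes, Dbp, a transcription factor driven directly by CLOCK and BMAL1, stood at 4.20, 5.51 and 8.03 CPM on low, at a median of 55.9 CPM on control and at 8.87, 38.6 and 108.2 CPM on high isoleucine. The groups were just apart, and the difference was 2.94 (SE 0.48, adjusted p = 1.6e-05). Its relative Tef rose by 0.63 (adjusted p = 0.046), a call that 8 of the 12 fits leaving out 1 library lost (adjusted p up to 0.2). Por, the electron donor of the cytochromes P450, fell by 0.82 (adjusted p = 0.012; adjusted p = 0.15 without the number-28 libraries, and adjusted p = 0.055 without high replicate 1 alone). The labels give no hour of the day for the samples, so hour and diet cannot be told apart. The E-box CACGTG, read by CLOCK and BMAL1 and its own reverse complement, was found in 5 of 23 clock list promoters (21.7%), against 9.96% of tested genes. The 100 bases before the start of Cry1, with the E-box in capitals, show one of them.
Cry1, chr10:85185055-85185154, minus strand: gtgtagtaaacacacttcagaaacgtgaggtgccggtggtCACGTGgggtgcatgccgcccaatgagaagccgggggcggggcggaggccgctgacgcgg

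Of 29 ATF4 target genes none rose and 2 fell (median -0.21), a share near the 6.11% of all genes tested that fell. The 2 were Ddit3, the stress factor CHOP (-0.59, adjusted p = 0.038), and Ppp1r15a, which restores translation after stress (-0.49, adjusted p = 0.013). Ddit3 lost its call in 6 of the 12 fits that left out 1 library, and Ppp1r15a had an adjusted p of 0.11 without the number-28 libraries. Asns, asparagine synthetase, stood at 0 to 1.1 CPM on low and at 0.0888 to 0.259 CPM on high isoleucine, too few counts to show a difference. Trib3 (0.14, SE 0.25), the hormone gene Fgf21 (-0.44, SE 0.40) and the stress hormone gene Gdf15 (0.08, SE 0.52) were not called. Fgf21 stood at 19.2, 50.4 and 61.3 CPM on low and at 16.2, 29.1 and 56.6 CPM on high isoleucine, and the groups overlapped. Of 18 cytosolic aminoacyl-tRNA synthetases 1 fell, the threonyl enzyme Tars (-0.51, adjusted p = 0.0094), and it was not called under library totals alone or without low replicate 6 (adjusted p = 0.05). Under library totals alone 3 of the 18 were higher and none lower, so no direction is stated for the synthetases.

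Of 27 genes of branched-chain amino acid breakdown none rose and 1 fell (median 0.07). It was Bckdhb, a subunit of the dehydrogenase that commits these amino acids to oxidation (-0.30, adjusted p = 0.049). Its levels were 96.3, 104 and 121.4 CPM on low and 81.9, 85.0 and 93.3 CPM on high isoleucine. The groups were apart, but 9 of the 12 fits leaving out 1 library lost the call, as did leaving out both number-28 libraries (adjusted p = 0.13). Under library totals alone 7 of these genes were higher and none lower, so no direction is stated for the list.

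In the mTORC1 list 2 of 24 rose and 3 fell, and under library totals alone 4 were higher and 3 lower. Eif4ebp3, a repressor of cap-dependent translation, stood at 25.2, 59.0 and 108.7 CPM on low, at a median of 10.2 CPM on control and at 6.83, 11.5 and 33.3 CPM on high isoleucine. The difference of -1.84 (SE 0.54, adjusted p = 0.014) was -1.61 without the number-28 libraries (adjusted p = 0.091). Nprl3, a subunit of the complex that restrains mTORC1 when amino acids are scarce, fell by 0.47 (adjusted p = 0.0031). Its partner Nprl2 rose by 0.36 (adjusted p = 0.023; adjusted p = 0.19 without the pair, and lost in 5 of the 12 fits leaving out 1 library). The S6 kinase gene Rps6kb1 fell by 0.37 (adjusted p = 0.0042; adjusted p = 0.057 without the pair). The other rise, the partner gene Depdc5 (0.40), is named to complete the count after its value was seen.

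Amino acid disposal enzymes were lower where called, and none of the calls named here was kept without the number-28 libraries. That fit also holds fewer high libraries, and several of the calls were lost on leaving out other single libraries. Scaled by library totals alone, 1 urea cycle gene was higher and 1 lower. In the urea cycle 2 of 8 fell, Ass1 (-0.72, adjusted p = 0.03) and Asl (-0.80, adjusted p = 0.04), which join aspartate to the cycle and release arginine. In the methionine cycle 3 of 13 fell: Ahcy (-0.54), Gnmt (-0.66) and Cdo1 (-0.37). Among 29 genes of other amino acid catabolism 3 fell, Tat, Hal, the first enzyme of histidine breakdown (-0.79), and Got1, the cytosolic aspartate aminotransferase (-1.16). Without the pair the adjusted p of Ass1 was 0.23, of Asl 0.24, of Ahcy 0.17, of Gnmt 0.31, of Cdo1 0.075, of Hal 0.082 and of Got1 0.22. Leaving out 1 library lost the call of Ass1 in 4 of the 12 fits, of Asl in 9, of Gnmt in 8 and of Got1 in 10. Among 12 periportal genes, Hal and Ass1 fell and Ctsc, a lysosomal protease gene, rose (0.58, adjusted p = 0.045; adjusted p = 0.21 without the pair, and lost in 8 of the 12). None of 12 pericentral genes was called.

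Of 80 nuclear genes of oxidative phosphorylation 11 fell and 1 rose (median -0.23). For 10 of the 80, all high libraries lay below all low libraries, against 2.51% of all genes tested. Without the number-28 libraries 7 fell and none rose, and under library totals alone 3 fell and 1 rose. Cyc1, the cytochrome c1 of complex III, stood at 155.5, 184.8 and 210.9 CPM on low and at 121.7, 141 and 150.5 CPM on high isoleucine. The groups were apart, and Cyc1 fell by 0.39 (SE 0.08, adjusted p = 0.00071). Sdhb, of complex II, fell by 0.51 (adjusted p = 0.0037), Ndufb9, of complex I (-0.40, adjusted p = 0.0085) and the cytochrome c gene Cycs (-0.42, adjusted p = 0.011). The single rise was Atp5s (0.42), named to complete the count after its value was seen.

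Of 13 mitochondrially encoded genes 2 fell, mt-Cytb (-0.77, adjusted p = 0.0071) and mt-Nd4 (-0.59, adjusted p = 0.024), and neither passed without the number-28 libraries (adjusted p = 0.13 and adjusted p = 0.25), which held the lowest mitochondrial share. mt-Nd4 also lost its call in 3 of the 12 fits leaving out 1 library. Of 77 cytosolic ribosomal protein genes 4 fell (median -0.25), a share below the 6.11% of all genes tested that fell. The 4 were Rpl12 (-0.54), Rpl30 (-0.38), Rpl8 (-0.42) and Rps16 (-0.45). None was called without the number-28 libraries or under library totals alone, and leaving out 1 library lost the call of Rpl12 in 5 of the 12 fits, of Rpl30 in 3, of Rpl8 in 4 and of Rps16 in 10. Nolc1 and Bysl, which act in making ribosomes in the nucleolus, fell without overlap: Nolc1 stood at 35.4, 39.2 and 47.8 CPM on low and at 21, 23.7 and 28.4 CPM on high isoleucine (-0.73, SE 0.11, adjusted p = 3.6e-06), and Bysl fell by 0.78 (adjusted p = 8.4e-06).

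Several genes that are female-biased in mouse liver rose steeply. Of 25 such genes 6 rose and 3 fell (median 0.40), and without the number-28 libraries 7 rose and none fell. Of 21 male-biased liver genes 4 rose and 1 fell (median 0.35), and without the number-28 libraries none rose and 2 fell (median 0.10). Whether the lists differed was not tested. A1bg, a plasma glycoprotein gene, stood at 0.998, 3.65 and 10.96 CPM on low, at a median of 62.5 CPM on control and at 10.9, 116.9 and 356.4 CPM on high isoleucine. The lowest high library was level with the highest low library, and A1bg rose by 4.997 (SE 0.62, adjusted p = 7.3e-08). Cyp3a16 stood at 0.21, 0.589 and 6.71 CPM on low and at 2.02, 186.1 and 338.2 CPM on high isoleucine and rose by 6.69 (SE 0.87, adjusted p = 3.5e-07).

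Cyp3a41a stood at 5.44, 20.7 and 233.7 CPM on low and at 102.1, 1687 and 2835 CPM on high isoleucine (4.73, SE 0.73, adjusted p = 4.3e-06). Cyp3a41b, at a median of 0 CPM on low and 309.5 CPM on high isoleucine, rose by 8.35 (SE 1.21, adjusted p = 5.6e-06), a fitted value that depends on the prior count where libraries are at 0. Its call was lost with the title number as a random block (adjusted p = 0.066). For Cyp3a16 and Cyp3a41b the groups overlapped between library 28R, the lowest high library (2.02 and 1.83 CPM), and low replicate 6, the highest low library (6.71 and 4.95 CPM). These drug- and steroid-oxidising enzymes are close copies of each other, so the division of reads among Cyp3a16, Cyp3a41a, Cyp3a41b and Cyp3a44 is uncertain. Cyp3a44 stood at 55.4, 119.1 and 259.9 CPM on low and at 156.3, 549.4 and 863.3 CPM on high isoleucine (2.03, SE 0.43, adjusted p = 0.00078).

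Sult1e1, which inactivates oestrogen by adding sulfate, went the other way: it stood at 18.6, 31.2 and 48.8 CPM on low and at 3.73, 8.23 and 15.5 CPM on high isoleucine. The groups were apart, and it fell by 1.86 (SE 0.52, adjusted p = 0.0098), and the difference was -1.48 without the number-28 libraries (adjusted p = 0.095). In the growth hormone and leptin list of 18 genes 2 rose and 3 fell, and under library totals alone 4 were higher and 2 lower. Lifr, a receptor of inflammatory cytokines, rose by 0.84 (adjusted p = 0.0011; adjusted p = 0.054 without the pair) and the kinase gene Jak2 by 0.33 (adjusted p = 0.033; adjusted p = 0.18 without the pair, and lost in 6 of the 12 fits leaving out 1 library). Bcl6, a transcriptional repressor that acts on sex-biased liver genes, fell by 1.86 (adjusted p = 0.042) and the leptin receptor gene Lepr (-1.33, adjusted p = 0.046). Without the pair these reached adjusted p = 0.19 and adjusted p = 0.18, and each lost its call in 8 of the 12 fits leaving out 1 library. None of this list was called without the number-28 libraries. Igf1 stood at 710.5, 796.8 and 876.9 CPM on low and at 660.6, 684.3 and 841.7 CPM on high isoleucine and was not called.

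Of 25 acute phase genes 5 rose (10 when scaled by library totals alone), against 8.75% of all genes tested. Without the number-28 libraries 1 rose. That gene, Steap4, a metalloreductase, stood at 33.6, 41.1 and 47.9 CPM on low and at 56.3, 69.6 and 92.3 CPM on high isoleucine and rose by 0.79 (SE 0.21, adjusted p = 0.0059). Saa1 and Saa2 had log2 differences of 4.42 and 4.92 with all libraries and of 0.63 (adjusted p = 0.61) and 1.14 (adjusted p = 0.41) without the pair. Crp rose by 0.57 (adjusted p = 0.067 without the pair). The fifth, Orm2 (1.59), is named to complete the count after its value was seen. Suv39h2 differed by 4.10 with all libraries and by 1.06 without the pair (adjusted p = 0.037).

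Several genes outside these groups were among the largest or most certain changes. Gstm4, a glutathione transferase gene, rose by 1.19 (SE 0.18, adjusted p = 3.2e-06), from 9.37 to 15.4 CPM on low to 20.2 to 42.2 CPM on high isoleucine. Tsku, a secreted hepatokine gene, stood at 20.5, 43.9 and 72.1 CPM on low and at 4.52, 8.57 and 18.7 CPM on high isoleucine, and fell by 2.11 (SE 0.46, adjusted p = 0.001). Both pairs of groups were apart. Arl4a, a small GTPase gene, fell by 1.10 (adjusted p = 1.6e-06) and Gde1, a glycerophosphodiesterase gene (-0.80, adjusted p = 3.6e-06). Herpud1, an endoplasmic reticulum degradation factor, was the only one of 21 unfolded protein response genes called, and fell by 1.03 (SE 0.24, adjusted p = 0.002; 360.1, 450 and 577.3 CPM on low, 175.9, 211 and 287.7 CPM on high isoleucine). Cirbp and Rbm3, RNA-binding proteins that rise when body temperature drops, both fell (-0.69, adjusted p = 0.015, and -0.74, adjusted p = 0.013), with adjusted p = 0.077 and adjusted p = 0.058 without the number-28 libraries. Cyp26a1, which breaks down retinoic acid, fell by 1.29 (adjusted p = 0.00074). Among 18 targets of the xenobiotic receptors CAR and PXR 3 fell: Cyp3a13 (-0.69, adjusted p = 0.0005), Por and the gene of PXR itself, Nr1i2 (-0.44, adjusted p = 0.012), of which only Cyp3a13 passed without the pair (adjusted p = 0.0032, against 0.15 for Por and 0.14 for Nr1i2).

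Whether the difference depended on strain was tested against C57BL/6J females. No gene passed in either direction (0% higher and 0% lower), with 1193 genes at an unadjusted p below 0.05, a lowest adjusted p of 0.051 and 23 genes called by DESeq2. A missed threshold does not show that the strains responded alike. The interferon response list had a median log2 difference of 1.44 in DBA/2J females, 1.05 in C57BL/6J females, 1.23 in DBA/2J males and 0.53 in C57BL/6J males. Oas1a differed by 2.68, 1.23, 1.57 and 0.89 in the same order. Apol9a differed by 1.54, 1.71, 1.07 and 1.47, and Dbp by 2.94, 3.93, 2.01 and 3.35. Lpl differed by -2.59 in DBA/2J females and -0.67 in C57BL/6J females, a gap that did not pass (adjusted p = 0.19), and Tsku by -2.11 and 0.18 (adjusted p = 0.18).

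**Figure D4:**
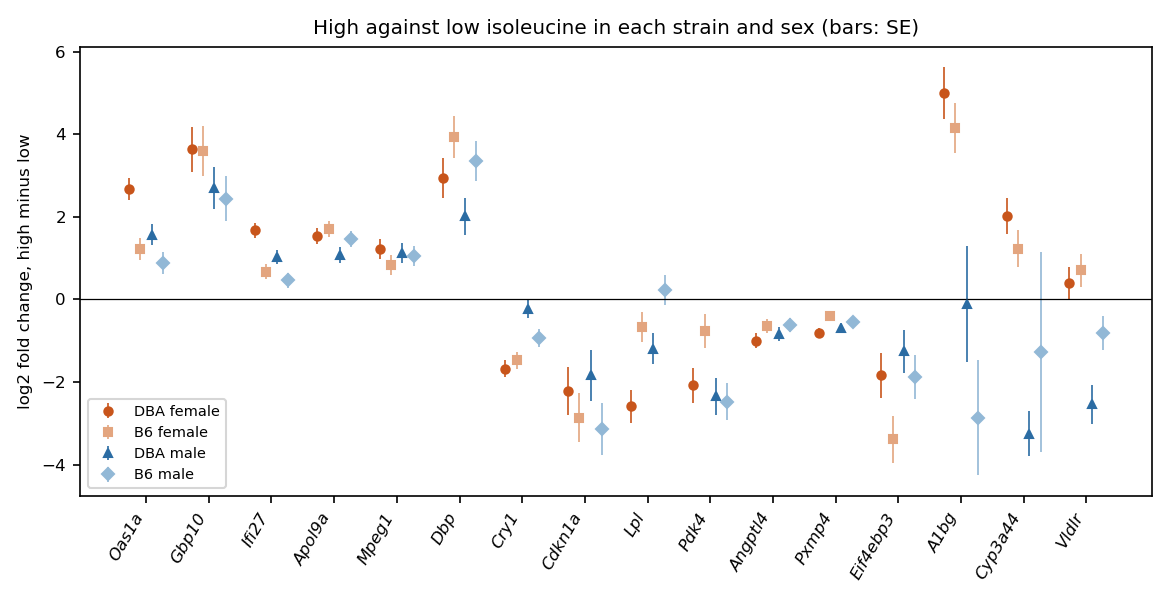
Genes stand on the horizontal axis, with the log2 difference high minus low isoleucine (points) and its standard error (bars) on the vertical axis, in DBA/2J females, C57BL/6J females, DBA/2J males and C57BL/6J males. Oas1a, Apol9a and Dbp lie above 0 in all 4 classes, while Lpl is lowest in DBA/2J females and Cyp3a44 lies above 0 in females of both strains and below 0 in males.

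Against DBA/2J males 80 genes passed the test of the difference between the sexes, 41 with a more positive difference in females (0.274%) and 39 with a more negative one (0.261%). The count was 4 with the title number as a random block, 6 with the 2 libraries of a number summed, 49 without the number-28 libraries, 205 with DESeq2 and 366 with limma's library quality weights. It was 167 without DBA/2J male high replicate 3 and 140 without DBA/2J male low replicate 6. Cyp3a44 rose in females and fell in males, where it stood at 3.08 to 13.1 CPM on low and at 0.496 to 1.29 CPM on high isoleucine (difference 5.27, adjusted p = 2.1e-06). Vldlr, a receptor of triglyceride-rich lipoproteins, differed by -2.54 in males and 0.39 in females (difference 2.94, adjusted p = 0.01). Cry1 differed by -1.67 in females and -0.23 in males (difference -1.44, adjusted p = 0.0073), its male levels being 3.06 to 8.18 CPM on low and 2.95 to 5.77 CPM on high isoleucine. Dnase2b, an acid nuclease gene, fell in females by 0.56 on the log2 scale and differed by 0.20 in males (difference -0.76, adjusted p = 0.00035). Of 18 named genes that passed, 10 also passed without the number-28 libraries, and 2 with the title number as a random block: Cyp3a44 (adjusted p = 0.042) and Dnase2b (adjusted p = 0.023). Saa1, Saa2 and Suv39h2, which passed with all libraries, did not without the pair (adjusted p = 0.64, adjusted p = 0.4 and adjusted p = 0.74).

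**Figure D5:**
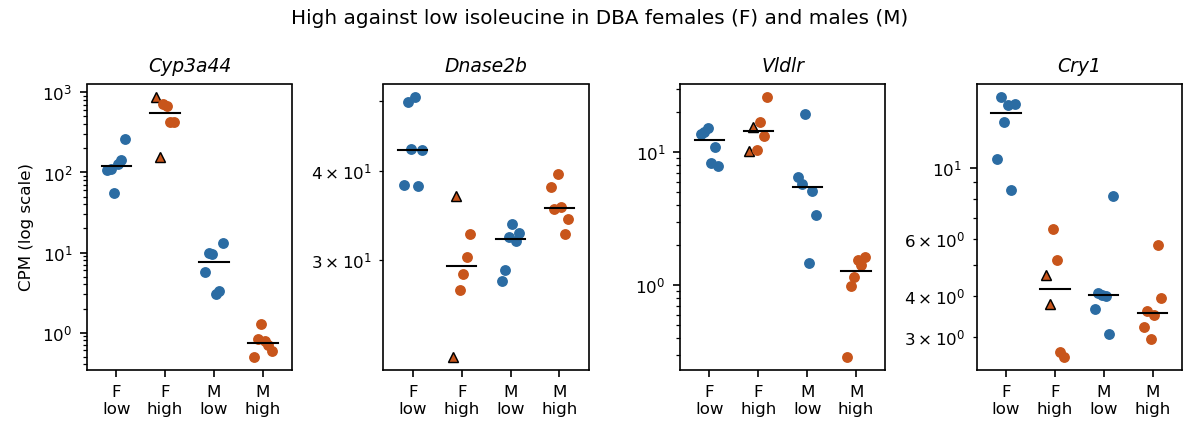
Each panel plots 1 gene in the DBA/2J libraries, with sex and diet (low or high isoleucine) on the horizontal axis and CPM on a logarithmic vertical axis; points are libraries, triangles are the number-28 libraries and bars are medians. Cyp3a44 is lower in the males on high than on low isoleucine and higher in the females on high isoleucine, Dnase2b is lower in the females on high than on low isoleucine, and Cry1 is highest by median in the females on low isoleucine.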

How the data were processed

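RNA of mouse liver was sequenced in 72 libraries, and the authors deposited 1 table of expected counts per Ensembl gene, made by alignment to GRCm38.p5, per the labels' protocols. Which aligner and counter were used is not given in the sources used here. Of tools, R 3.4.3, limma and edgeR are listed, per the submitters' processing notes. One label field names polyA-enriched mRNA libraries and another a total RNA guide. Of the nonzero deposited counts 9.56% were not whole; all were rounded to whole numbers. The last of 50308 lines was cut short and left out. Of the genes, 22625 had no count in any library. Deposited tables of the authors' own comparisons were not used.

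The fit was edgeR's quasi-likelihood test (edgeR 4.0.16, R 4.3.3) over all 72 libraries with 12 group means, TMM factors (0.841 to 1.14), a filter on low counts by group and Benjamini-Hochberg adjustment over 14954 genes. The code was also run on simulated counts with known differences. Those libraries were drawn independently, with no relation by title number and no outlying library. The simulation therefore cannot show how the fit behaves under these features. The common biological coefficient of variation was 0.21. No 2 replicates agreed within sampling noise (lowest chi-square per degree of freedom 16.8).

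Genes were named by rule: the 15 largest rises and falls among called protein-coding genes of at least 1 CPM, the 10 lowest adjusted p each way, up to 4 called members of each of 52 lists, a fixed panel and the 8 largest differences each way of the interaction tests. A gene named outside the rule is marked in the text, and 1 gene that the rule names is not reported here. The members and lists were chosen with earlier results of these data known, and lists are described by counts and medians with no set test. Alternatives were DESeq2 1.42.0, limma 3.58.1 with library weights or the title number as a random block, other scalings and filters, summed libraries and leaving out libraries.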

Additional observations from a re-analysis of the deposited data

Results flagged for a closer look

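Among 423 sets of 6 libraries (141 named genes in 3 diets), 53 held 1 library whose gap to the nearest other exceeded Dixon's 95% critical value. About 1 in 20 independent sets of normally distributed values pass it. These sets share libraries, and CPM need not be normally distributed, so the 53 cannot be set against that rate. Of the 53, 21 fell on high-isoleucine replicate 2, the library 28R, and 10 on low-isoleucine replicate 6.

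High-isoleucine replicate 2 was the highest library of its group for the acute phase genes Saa1 (1373 CPM) and Saa2 (788.9 CPM), for Suv39h2 (26.4 CPM) and for interferon and antigen presentation genes. Of the latter, Tgtp1 stood at 355.9 CPM, Zbp1 at 103.3, Gbp3 at 68.84, Ifi44 at 26.59, Gbp7 at 55.67, Usp18 at 31.93 and Rtp4 at 51.06. Psmb9 stood at 49.67 CPM, Psmb8 at 151.7, Psmb10 at 46.3, Tap1 at 89.12, Tap2 at 51.57, Ciita at 7.863 and H2-Eb1 at 57.35. The same library was highest for the macrophage gene Mpeg1 (206.8 CPM), Ndufb9 (135 CPM), Scd2 (6.379 CPM) and Cyp26a1 (8.495 CPM).

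Low-isoleucine replicate 6, the deepest library, was the highest of its group for Cyp3a41b (4.952 CPM), Cyp3a16 (6.713 CPM), A1bg (10.96 CPM), Oas1a (3.126 CPM), Trib3 (15.61 CPM), Cidec (4.578 CPM), Bysl (21.99 CPM), Pxmp4 (222.9 CPM) and Igfbp1 (267 CPM), and the lowest for Tef (36.58 CPM).

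Of the other high-isoleucine libraries, replicate 1 was highest for Lifr (490.4 CPM) and Igf1 (841.7 CPM) and lowest for Nr1i2 (52.23 CPM) and Rps16 (122.5 CPM). Replicate 3 was highest for Fasn (132.4 CPM) and Tat (1047 CPM), replicate 4 for Atp2b2 (7.455 CPM), replicate 5 for Ppp1r15a (16.36 CPM) and Lepr (54.16 CPM), and replicate 6 for Usp2 (13.13 CPM) and Bcl6 (22.46 CPM). Of the low-isoleucine libraries, replicate 2 was highest for Rbm3 (154.8 CPM), replicate 3 for Slc4a9 (45.38 CPM) and Pdk4 (239.8 CPM), and replicate 4 for Suv39h2 (0.4668 CPM), Ass1 (2883 CPM) and Tat (2242 CPM). On control isoleucine, replicate 6 was highest for Cidec (3.375 CPM), Stab1 (45.61 CPM) and Fabp4 (18.06 CPM), replicate 3 for Bcl6 (83.42 CPM) and replicate 2 for Sult1e1 (39.83 CPM).

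The interaction test found 18 named genes whose log2 difference, high minus low isoleucine, was unlike in DBA/2J females and males. Females minus males, it was 6.14 for Saa2, 5.98 for Cyp3a41a, 5.27 for Cyp3a44, 5.08 for Saa1, 3.55 for Suv39h2, 2.94 for Vldlr, 2.43 for the calcium pump gene Atp2b2 and 1.98 for Cyp39a1. It was -2.93 for the deubiquitinase gene Usp2, -2.67 for the transporter gene Slc22a29, -2.11 for the carboxylesterase gene Ces2c, -2.04 for Omd, -1.96 for the G protein subunit gene Gnai1, -1.69 for Cyp26a1, -1.59 for the transcription factor gene Grhl1, -1.57 for Bmp7, -1.44 for Cry1 and -0.76 for Dnase2b. Leaving out 1 library lost the call of 9 of the 18. Without high replicate 2 the adjusted p was 0.78 for Suv39h2 and 0.078 for Saa1, and without both number-28 libraries 0.4 for Saa2.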

How the results depend on the processing

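Across the alternatives tried, the count of genes between high and low isoleucine (2223) moved by over 1.5 times with limma's library quality weights (3373), the title number as a random block (1177), the 2 libraries of a number summed (951) and without the number-28 libraries (1272), an alternative chosen after seeing the data. Leaving out 1 library gave 1531 to 2196. Library totals alone gave 2298 higher and 409 lower genes. Low against control (1760) moved with quality weights (2812), the block (827) and summing (669), and gave 1178 to 1690 with 1 library left out. High against control (1) gave 3 with DESeq2 and 0 with a filter of 1 CPM, only the compared groups, quality weights, the block, summing or without the number-28 libraries, and 0 to 1 with 1 library left out. The strain interaction (0) gave 23 with DESeq2, 8 with library totals, 5 with only the compared groups, 45 with quality weights, 3 without the number-28 libraries and 0 to 10 with 1 library left out (10 without low replicate 6). The sex interaction (80) gave 205 with DESeq2, 53 with no filter, 51 with only the compared groups, 366 with quality weights, 4 with the block, 6 with summing, 49 without the number-28 libraries and 60 to 167 with 1 library left out (167 without DBA/2J male high replicate 3, 140 without DBA/2J male low replicate 6). The cause of these shifts was not tested.

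The title number pairs libraries within a diet, not across diets, and the labels do not say what it marks. The residuals of 2 libraries with 1 number had a median correlation of 0.0581 on control, -0.11 on low and -0.0301 on high isoleucine, against -0.29, -0.254 and -0.244 for other pairs. Residuals were centred on the mean of the 6 libraries of a diet, so unrelated libraries would correlate below 0, not at 0. In each diet the median was higher for libraries of 1 number than for other pairs, and the block's fitted correlation was 0.244. Of 124 named genes called between high and low isoleucine, 94 passed with the block, 75 without the number-28 libraries and 63 under every alternative run. Signs turned only for genes that were not called: Gdf15 (-0.0345 with quality weights, -0.0993 without the number-28 libraries, -0.0232 to 0.15 with 1 library left out), Cyp7a1 (-0.00973 summed, -0.0974 to 0.212 with 1 left out), Fasn (0.0855 with library totals, 0.00937 summed, 0.25 without the number-28 libraries, -0.327 to 0.119 with 1 left out), Cidec (0.0479 with DESeq2, 0.123 with library totals, 0.0309 with only the compared groups, 0.0559 with quality weights, 0.0032 with the letter as a block, -0.345 to 0.617 with 1 left out) and Bmp7 (-0.0278 to 0.152 with 1 left out).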

Other observations

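Markers of other tissues and cell types were low and mostly overlapped between the diets. The summed pancreas markers stood at 6.36 to 13.4 CPM on low and at 9.46 to 29.4 CPM on high isoleucine, and the 1 marker with enough counts to test, the elastase gene Cela1, rose by 0.91 (SE 0.16, adjusted p = 4.4e-05). The 7 erythroid markers summed to 193 to 364 CPM on low and to 78.9 to 282 CPM on high isoleucine, and none of the 6 tested was called. Stellate cell and matrix genes summed to 499 to 683 CPM and 426 to 617 CPM, with none of 23 called. Adipose markers summed to 7.69 to 11.9 CPM on low, 5.14 to 23.1 CPM on control and 4.07 to 7.2 CPM on high isoleucine. The low and high ranges did not overlap. Of the 2 tested, Fabp4 fell by 0.75 (adjusted p = 0.027) and the other was not called (-3.66). Fabp4 had an adjusted p of 0.07 without the number-28 libraries and lost its call in 3 of the 12 fits that left out 1 library.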
